A study of Mus musculus with 16 samples.

Results

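Day 0 replicate 2 is 1 of 4 RNA samples of a spike-in study of mouse embryoid bodies, the aggregates that embryonic stem cells form in suspension. Its RNA was divided into 4 vials, and this gave 4 of the 16 libraries of the series. The vials received in vitro transcribed (IVT) mouse spike-ins as mix 1, mix 2 or mix 3, or as mix 4, which holds none, together with ERCC control RNAs (ERCC mix 1 in mixes 1 and 3, ERCC mix 2 in mixes 2 and 4). The mix 3 and mix 4 vials were set against the mix 1 and mix 2 vials because they were selected on measured values of these same libraries. All differences between these pairs of vials are therefore given as a description, without a test. The vials are portions of 1 RNA and not separate cultures, so that their spread is technical.

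The R1 mouse embryonic stem cells had grown as embryoid bodies without Lif for 4 days, and day 0 is the time just before retinoic acid was added. Day 0 replicate 1, another RNA of the same stage with 4 vials of the same mixes, served as the reference. The other 8 libraries are from 2 RNA samples taken after 4 days with 2 μM retinoic acid. The cultures hold cells of several lineages, and in bulk RNA fewer cells of a type and less RNA per cell cannot be told apart. Every group carries ERCC RNAs, and only mix 4 lacks the IVT transcripts.

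GC content is the share of guanine and cytosine among the bases of a transcript. Mouse transcripts differ widely in it, and many genes make isoforms that differ in their first exon or in the end of the last. FPKM scales the fragments of a transcript to its length and to the size of the library, and for isoforms with shared exons the RSEM program divides the shared fragments by a statistical model. The libraries were made from total RNA after removal of ribosomal RNA, a preparation that keeps RNAs without a poly(A) tail, such as the mRNAs of replication-dependent histones and the RNA components of RNase MRP and RNase P.

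Of 33750 rows in the table, 33644 RefSeq rows were used after the 48 spike-in rows and 58 RefSeq rows of spike-in genes were left out. A mean of at least 1 FPKM over the 8 day 0 libraries was reached by 13807 transcripts of 11081 genes, and GC content and length were found for 13615 of them. The summed FPKM was 562100 to 616082 in replicate 1, 513429 in the mix 1 vial and 474730 in the mix 2 vial of replicate 2, and 407688 and 411083 in the vials of mixes 3 and 4. The number of those transcripts listed at 0 was 96 and 119 in the mix 1 and mix 2 vials and 561 and 486 in the mix 3 and mix 4 vials. The fragments behind each value are not in the table, so the depth of a single value is unknown. For whole libraries, the paper's mapping statistics place the read totals of the mix 3 and mix 4 vials between those of the mix 1 and mix 2 vials. They also list a larger share of intronic reads in the mix 3 and mix 4 vials.

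All 4 vials carried the markers of the same stage. Lin28a, an RNA-binding protein of stem cells, was at 144 and 146 FPKM in the mix 1 and mix 2 vials and at 132 and 137 FPKM in the mix 3 and mix 4 vials, against 145 to 149 in replicate 1 and 1.08 to 1.49 at day 4. Tdgf1, a Nodal co-receptor, was at 55.3, 56.2, 58.6 and 58.0 FPKM in the vials of mixes 1 to 4, and at most 0.551 at day 4. The mesoderm gene T was at 66.5, 62.3, 57.1 and 59.1 FPKM in the vials and at most 0.037 at day 4. Of the 10 stem cell markers, 7 were at 1 FPKM or more in all 4 vials, and the sum of the 10 was 334 and 323 FPKM in mixes 1 and 2 and 244 and 251 in mixes 3 and 4. Of 20 markers of other cell types the embryoid bodies could hold, 14 were at 1 FPKM or more in all 4 vials, with a sum of 344 and 321 FPKM against 255 and 260. More than 2-fold lower with mixes 3 and 4 were 4 of the 10 stem cell markers and 7 of the 20 others, and 1 stem cell marker was higher. These counts rest on gene sums and on the 2-fold limit alone. They include genes near 0, such as Utf1 at 0.618, 0.305, 0.177 and 0.077 FPKM in the vials of mixes 1 to 4. Of all transcripts, 34.3% were lower and 6.48% higher by the rule given below, which also allows no overlap. The cells are labelled embryonic stem cells, and the mesoderm markers T and Mixl1 were thus expressed beside the stem cell markers, in replicate 1 as well.

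Pou5f1, the stem cell factor also known as Oct4, was the marker with the largest difference between portions of the same RNA. Its transcript NM_013633 was at 83.1 to 94.5 FPKM in the 4 libraries of replicate 1. In replicate 2 it was at 68.5 FPKM with mix 1, 34.6 with mix 2, 1.56 with mix 3 and 2.77 with mix 4. The second RefSeq transcript, NM_001252452, was listed at 0 in all of replicate 1 and at 1.22, 21.6, 8.85 and 9.81 FPKM in the vials of mixes 1 to 4. Summed over both, the gene was at 69.7 and 56.2 FPKM in the mix 1 and mix 2 vials and at 10.4 and 12.6 FPKM in the others, so that the pairs of vials did not overlap and the log2 difference was -2.44. Without Pou5f1 the other 9 stem cell markers summed to 264 and 267 FPKM against 234 and 239. In replicate 1 the same mixes differed in NM_013633 by -0.09 with an SE of 0.06 on the log2 scale (limma, adjusted p = 0.909). Both accessions were matched to the same GENCODE transcript of 1362 bases with 57.6% GC. The first 300 bases of its coding sequence, at chr17:35506100-35506399 on the plus strand of GRCm38 (mm10), have 63% GC. They are shown here from the GENCODE transcript with G and C in capitals, as in all sequences that follow.
Pou5f1: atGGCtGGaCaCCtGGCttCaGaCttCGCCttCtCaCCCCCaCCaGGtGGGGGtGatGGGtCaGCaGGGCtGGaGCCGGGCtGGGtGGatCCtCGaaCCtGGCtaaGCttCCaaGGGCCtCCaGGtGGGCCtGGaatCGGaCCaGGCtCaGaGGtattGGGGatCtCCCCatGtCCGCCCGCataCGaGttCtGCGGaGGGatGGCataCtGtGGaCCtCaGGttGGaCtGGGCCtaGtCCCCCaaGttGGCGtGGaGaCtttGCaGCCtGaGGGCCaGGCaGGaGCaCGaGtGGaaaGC

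The distance between libraries was first taken over all 13807 transcripts. Values are log2(FPKM + 0.1), and a difference is the mean of the mix 3 and mix 4 vials minus the mean of the mix 1 and mix 2 vials. The median absolute log2 difference between libraries of replicate 1 was 0.06 to 0.11 over its 6 pairs. It was 0.18 between the mix 1 and mix 2 vials and 0.13 between the mix 3 and mix 4 vials of replicate 2. Across these pairs of vials it was 0.70 to 0.94, and 35.4% to 47.4% of the transcripts were at least 2-fold apart, against 2.25% to 3.22% within replicate 1. The mix 1 and mix 2 vials were 0.14 to 0.30 from the libraries of replicate 1, and the mix 3 and mix 4 vials 0.92 to 1.06. The 2 portions with mixes 3 and 4 were thus farther from the other portions of their own RNA than those were from another RNA.

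A transcript was counted as different where the means were at least 2-fold apart (1 on the log2 scale) and the pairs of vials did not overlap. By this rule 895 transcripts (6.48%) were higher and 4736 (34.3%) lower with mixes 3 and 4. The same rule in replicate 1 gave 46 higher (0.333%) and 73 lower (0.529%). In day 4 replicate 1 it gave 131 higher (0.949%) and 76 lower (0.55%), and in day 4 replicate 2 it gave 176 higher (1.27%) and 113 lower (0.818%). Of the transcripts called, 84.1% were lower. After the differences were centred on the median of all transcripts, which was -0.38, 2364 were higher and 3697 lower (61% lower). With FPKM corrected for GC content, 1079 were higher and 1418 lower (56.8% lower).

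Both vials lay below all other 6 day 0 libraries for 7420 transcripts (53.7%) and above them for 4315 (31.2%). For the mix 1 and mix 2 vials these counts were 349 and 282. The mix 2 vial was below the mix 1 vial in 4323 of the 4736 lower transcripts and above it in 700 of the 895 higher ones. The same counts over all transcripts were not made. Over all of them the median log2 difference from the mean of replicate 1 was -0.08 with mix 1 and -0.12 with mix 2. In 3404 of the 4736 lower transcripts the 4 libraries of replicate 1 lay above mix 1 and mix 1 above mix 2. This count was not made over all transcripts either, so the order cannot be called particular to the lower ones. The 3 transcripts just past the limit were Tmem87a, Dmxl1 and Rbm12b2 on the higher side, from 1.0006 to 1.0019, and Tmem134, Tor1aip1 and Eif2b4 on the lower side, from -1.0001 to -1.0009. Just short of it were Acvr2a, Rabgap1l and Sp3, the last at 0.9976, and Trrap, Grb10 and Bmf, the last at -0.9992.

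The differences followed the GC content of the transcripts. The median GC content was 41.2% for the higher transcripts, 55.7% for the lower and 47.5% for the rest. Under 40% GC the median difference was 0.99 over 667 transcripts, of which 316 were called higher and 10 lower. Between 45 and 50% it was -0.02 over 3521 transcripts, and between 50 and 55% it was -0.87 over 3641. Between 55 and 60% it was -1.96 over 2661 transcripts, of which 2212 (83.1%) were lower and 29 higher. Over 60% GC it reached -2.61 over 567 transcripts, of which 506 (89.2%) were lower and 4 higher. In replicate 1 the corresponding medians went from -0.01 under 40% to -0.14 over 60%. Across the 13615 transcripts the difference and the GC content had a Spearman correlation of -0.77 and a Pearson correlation of -0.65. In replicate 1 they were -0.25 and -0.10. Transcripts are not independent replicates, and all share the same 4 libraries.

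The vials formed a series in this respect. Set against the mean of replicate 1, the transcripts over 60% GC had a median log2 difference of -0.51 with mix 1, -1.13 with mix 2, -3.71 with mix 3 and -3.32 with mix 4. The libraries of replicate 1 themselves lay between -0.10 and 0.18, the highest being its mix 1 vial. Under 40% GC the vials were higher by 0.09, 0.25, 1.21 and 1.10. The mix 2 vial thus deviated in the same directions as the mix 3 and mix 4 vials, by a smaller amount, and all 4 vials went from above to below the mean of replicate 1 between the bins of 44 to 46% and 48 to 50% GC. The day 4 libraries, from another stage, lay on the same side, at -3.16 to -2.16 over 60% GC and 0.77 to 1.17 under 40% GC. In the endogenous transcripts alone, the part of stage in those values cannot be told apart from other differences between the RNA samples. In the paper's linear model of the spike-ins' RSEM values, the term for day 4 with GC content was negative. The spike-ins were left out here, and the part of stage was not tested.

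**Figure D1:**
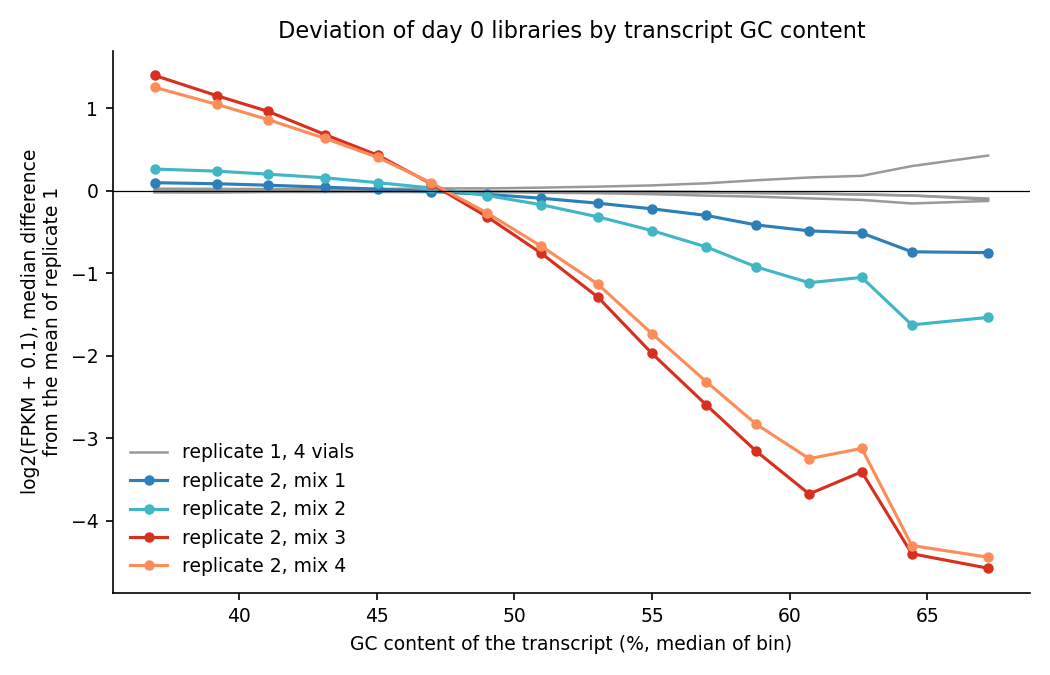
Median difference of log2(FPKM + 0.1) from the mean of the 4 libraries of day 0 replicate 1 (y axis) in bins of transcript GC content in percent (x axis), 1 line per day 0 library. The grey lines of replicate 1 stay near 0, mixes 1 and 2 of replicate 2 bend down at high GC, and mixes 3 and 4 run from above 1 under 38% GC to below -4 over 64%.

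The GC content of the transcript ends was read from the first and last 300 bases. The last 300 bases, with a median of 42% GC, had a Spearman correlation of -0.62 with the difference, and the first 300 bases, with a median of 61%, one of -0.18. When the median of the transcript's own GC bin was subtracted, the first 300 bases had 0.20 and the last -0.09. By level in replicate 1 the median difference had no steady order, with -0.32 under 5 FPKM, -0.46 from 5 to 20 FPKM, -0.32 from 20 to 100 FPKM and -0.62 over 100 FPKM. After subtraction of the GC bin these medians were 0.07, -0.02, -0.02 and -0.13.

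The relation with length was small once GC content was held in bins. Transcripts of 300 to 1000 bases had a median difference of -0.96 and a median GC content of 53.0%, those of 2000 to 4000 bases -0.42 and 50.1%, and those over 8000 bases 0.20 and 46.4%. The Spearman correlation with length was 0.19, and 0.01 after the median of the GC bin was subtracted. Within 40 to 45% GC the medians of the length bins lay between 0.57 and 0.61, and within 55 to 60% between -2.09 and -1.89. Over 60% GC the shorter transcripts differed more, with -3.36 for 84 transcripts of 300 to 1000 bases and -2.26 for 55 of 4000 to 8000 bases. Those shorter transcripts had 61.7% GC and the longer ones 60.8%. The shorter ones also include replication-dependent histones, such as H4c17 (402 bases, 60.7% GC) at -7.48. Whether length mattered there apart from gene class was not tested.

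**Figure D2:**
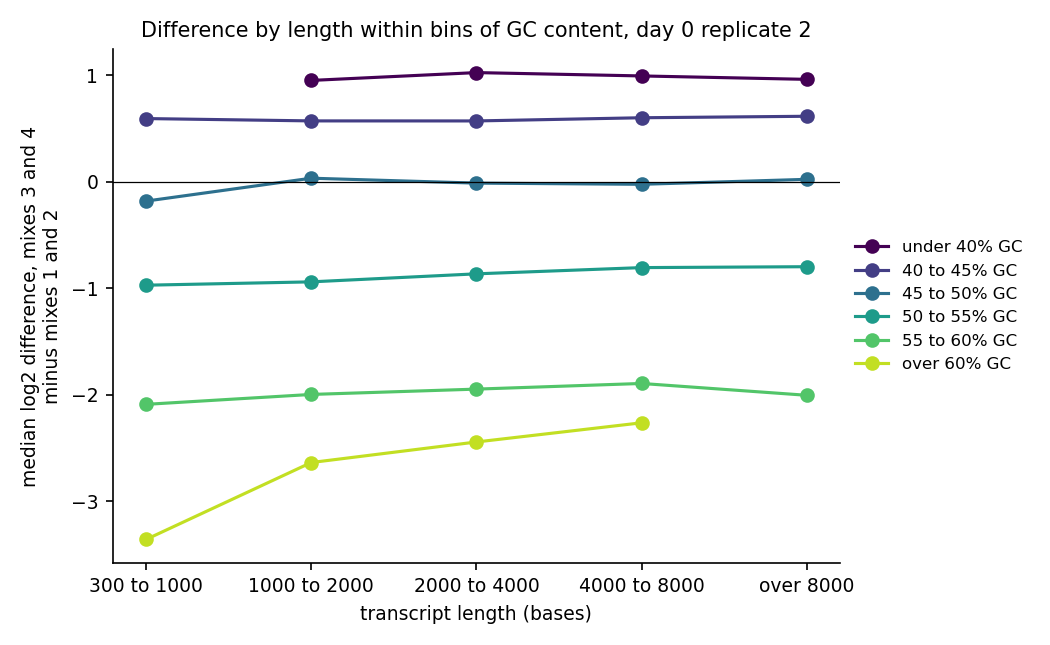
Median log2 difference between the vials of mixes 3 and 4 and those of mixes 1 and 2 (y axis) by transcript length in bases (x axis), 1 line per bin of GC content, for bins of at least 20 transcripts from 300 bases on. The lines are ordered by GC content and nearly level, apart from the one over 60% GC, which runs from -3.36 to -2.26.

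Replication-dependent histones, which package DNA and are made during S phase, stood lowest of the 16 gene lists. Of 74 histone transcripts, 63 passed the limit of 1 FPKM, and 61 of these were lower and 0 higher, where 34.3% of all transcripts were lower. Their median difference was -5.67, with 59.4% median GC, and it was -3.59 after subtraction of the GC bin's median. Against the mean of replicate 1 the list was at -1.30 with mix 1, -3.03 with mix 2, -8.22 with mix 3 and -7.35 with mix 4. H4c17, which encodes histone H4, was at 298 to 658 FPKM in replicate 1, at 131 and 48.3 FPKM with mixes 1 and 2, and at 0.285 and 0.416 FPKM with mixes 3 and 4. In the day 4 libraries it was low too, at 0.879 to 4.996 FPKM. The 2 transcripts not called were NM_178210 of H4c11, at 0.942 FPKM with mix 1 and listed at 0 in the other 3 vials, and NM_023422 of H2bc4, which had the highest difference of the list, 0.12. Its values were 3.26, 3.52, 2.54 and 5.38 FPKM in the vials of mixes 1 to 4. Histone genes are near-identical copies, so that reads may be assigned to the wrong member.

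Structured small noncoding RNAs were lower in 5 of the 6 that passed (83.3%, against 34.3% of all transcripts), of 7 in the list. Rmrp, the RNA of RNase MRP, which cuts ribosomal RNA precursors, was the highest of the list, at 9747 to 17135 FPKM in replicate 1. It was at 5038 FPKM with mix 1, 2875 with mix 2, 16.8 with mix 3 and 29.0 with mix 4, a log2 difference of -7.42. In the day 4 libraries it was at 114 to 707 FPKM. Rpph1, the RNA of RNase P, which trims tRNA precursors, went from 2101 and 614 FPKM to 6.58 and 8.59 FPKM, and was at 22.9 to 148 FPKM at day 4. Terc, the telomerase RNA, was at 15.5 and 7.61 FPKM, then 0.157 FPKM with mix 3 and listed at 0 with mix 4. These RNAs have 64.2%, 67.1% and 67.1% GC. Rnu11 and Rnu12, small nuclear RNAs of the minor spliceosome with 52.2% and 51.7% GC, had differences of -0.51 and -1.50, and Rnu11 was the member not called. The median of the list was -4.85, and -3.49 after subtraction of the GC bin. Rmrp is shown whole as the most abundant of these RNAs in replicate 1. It is transcribed from the minus strand at chr4:43492788-43493058, is 271 bases long and holds 26 CpG pairs.
Rmrp: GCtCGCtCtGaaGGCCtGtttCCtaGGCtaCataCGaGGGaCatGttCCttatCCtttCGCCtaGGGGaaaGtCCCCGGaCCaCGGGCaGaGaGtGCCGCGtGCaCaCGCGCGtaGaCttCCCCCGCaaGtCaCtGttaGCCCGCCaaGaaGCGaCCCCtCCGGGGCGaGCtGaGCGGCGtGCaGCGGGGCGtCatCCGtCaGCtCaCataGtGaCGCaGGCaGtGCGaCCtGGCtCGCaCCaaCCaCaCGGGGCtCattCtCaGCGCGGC

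Small nucleolar and Cajal body RNAs, which guide modification of ribosomal and small nuclear RNA, are short and mostly without a poly(A) tail. Of 141 rows, 33 passed, and the median was 0.06. Of these 9 were lower (27.3%, against 34.3% of all transcripts) and 6 higher (18.2%, against 6.48%). Snora78 had the lowest value of the list. It was at 156 to 266 FPKM in replicate 1, at 97.8 and 35.0 FPKM with mixes 1 and 2, and listed at 0 with mixes 3 and 4. In the day 4 libraries it reached at most 0.815 FPKM. Snora26 had the highest, with 19.2 to 34.8 FPKM in replicate 1, 17.6 and 12.8 FPKM with mixes 1 and 2, and 116 and 95.8 FPKM with mixes 3 and 4, a log2 difference of 2.80. In the day 4 libraries Snora26 was at 58.5 to 167 FPKM. Snora78 is 128 bases long with 64.1% GC, on the minus strand at chr17:24719676-24719803, and Snora26 is 121 bases long with 44.6% GC, on the plus strand at chr5:74093530-74093650. Their longest runs of G and C are 8 and 4 bases.
Snora78: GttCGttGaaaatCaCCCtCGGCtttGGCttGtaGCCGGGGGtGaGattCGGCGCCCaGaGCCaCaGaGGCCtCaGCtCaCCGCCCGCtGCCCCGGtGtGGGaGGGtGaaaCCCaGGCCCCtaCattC
Snora26: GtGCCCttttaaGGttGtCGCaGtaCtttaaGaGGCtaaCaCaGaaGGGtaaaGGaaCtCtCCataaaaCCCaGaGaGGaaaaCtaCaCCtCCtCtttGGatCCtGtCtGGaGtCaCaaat

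Cytosolic ribosomal proteins were mostly lower, and their values scattered over a wide range. Of 95 transcripts that passed, 58 were lower (61.1%, against 34.3% of all transcripts) and 1 higher (1.05%, against 6.48%), with a median of -1.32 (all transcripts -0.38) and of -0.58 after subtraction of the GC bin. The lowest was NM_001048057 of Rpl38, a protein of the large subunit. It was at 254 to 304 FPKM in replicate 1 and at 131 and 41.6 FPKM with mixes 1 and 2, and was listed at 0 with mixes 3 and 4. In the day 4 libraries it reached at most 1.603 FPKM. A second transcript of Rpl38, NM_023372, was at 853 and 410 FPKM and at 2.16 and 5.09 FPKM, while the third, NM_001048058, was at 1339 and 1872 FPKM and at 1290 and 1540 FPKM. The gene summed to 2324 FPKM in both of the first vials and to 1293 and 1545 FPKM in the others. The highest member was Rpl39, also of the large subunit, at 1370 to 1451 FPKM in replicate 1, 1523 and 1762 FPKM with mixes 1 and 2 and 3446 and 3312 FPKM with mixes 3 and 4. Its difference was 1.04, and in the day 4 libraries it was at 3083 to 3682 FPKM. The coding sequences of both are shown as the lowest and highest of the list. That of Rpl38, in exons at chr11:114668812-114672290 on the plus strand, has 213 bases and 49.3% GC, and that of Rpl39, at chrX:37082701-37085127 on the minus strand, has 156 bases and 44.2% GC. The whole transcripts have 53.9% and 48.7% GC. Ribosomal protein genes have many processed pseudogenes with which they can share reads.
Rpl38: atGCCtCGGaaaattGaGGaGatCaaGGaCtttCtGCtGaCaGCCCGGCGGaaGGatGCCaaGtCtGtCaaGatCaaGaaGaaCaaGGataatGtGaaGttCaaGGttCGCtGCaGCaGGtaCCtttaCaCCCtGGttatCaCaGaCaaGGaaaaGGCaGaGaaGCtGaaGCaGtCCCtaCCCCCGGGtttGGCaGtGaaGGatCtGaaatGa
Rpl39: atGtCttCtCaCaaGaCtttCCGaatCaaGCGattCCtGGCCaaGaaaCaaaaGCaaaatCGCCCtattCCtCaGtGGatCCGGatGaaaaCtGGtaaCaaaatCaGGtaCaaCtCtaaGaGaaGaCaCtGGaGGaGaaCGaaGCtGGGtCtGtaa

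Other lists of housekeeping genes had smaller median differences and shares closer to those of all transcripts, of which 34.3% were lower and 6.48% higher. Of 86 transcripts of oxidative phosphorylation, 38 were lower (44.2%) and 0 higher (median -0.88). In this list Ndufb7 was lowest, at 84.6 and 39.1 FPKM against 1.14 and 1.78 FPKM (59.7% GC), and Ndufb6 highest, at 110 and 108 FPKM against 229 and 204 FPKM (48.4% GC). Both encode subunits of complex I. Of 40 proteasome transcripts 14 were lower, a share (35%) near that of all transcripts, and 0 higher, with a median of -0.63, from -2.53 for Psmb10 (56.5% GC) to 0.71 for Psmc6 (37.0% GC). Of 86 transcripts of mitochondrial ribosomal proteins, 29 were lower (33.7%) and 3 higher (3.49%), and their median of -0.43 and share of lower transcripts were near those of all transcripts. Mrps23 held both ends of that list, with NM_001291272 at -3.50 and NM_001291270 at 6.06. The latter was listed at 0 or at up to 0.413 FPKM in the other 6 day 0 libraries and at 14.9 and 15.1 FPKM with mixes 3 and 4. Among the day 4 libraries it was listed at 0 in most and reached 10.98 FPKM at most. Spliceosome and SR proteins had 12 lower (19.7%) and 7 higher (11.5%) of 61 (median 0.06, 46.4% GC), from Snrpa at -5.02 to a transcript of Prpf31, NM_001159714. The latter was at 7.54 and 6.58 FPKM with mixes 3 and 4 and listed at 0 in the other 6 day 0 libraries. Among the day 4 libraries it was listed at 0 in most and reached 4.45 FPKM at most. The other Prpf31 transcript of the list had a difference of -2.40.

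C2H2 zinc finger genes, a large family of DNA-binding proteins, had the highest median of the lists, 0.27 over 394 transcripts with 44.7% GC. Of these 97 were higher (24.6%, against 6.48% of all transcripts) and 79 lower (20.1%, against 34.3%). Zfp207 had its transcript NM_001130169 at the low end, with 33.9 and 32.7 FPKM against 1.79 FPKM and a value listed at 0. Zfp967, at the other end, was listed at 0 with mixes 1 and 2 and was at 8.27 and 0.619 FPKM with mixes 3 and 4. Of 11 nuclear long noncoding RNAs, 1 was higher (9.09%) and 2 lower (18.2%), with a median of 0.18. Kcnq1ot1, which lies in an imprinted domain, was highest with 1.08 (40.3% GC), and a 1896-base transcript of Meg3, also imprinted, lowest with -3.17 (57.4% GC). The other Meg3 transcript that passed, of 14548 bases with 49.15% GC, had a difference of 0.18. Malat1 was at 300 and 320 FPKM with mixes 1 and 2 and at 553 and 497 FPKM with mixes 3 and 4.

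The lists of developmental genes were less low than other transcripts of their GC content, apart from the pluripotency list. The 20 Hox transcripts, which encode the body axis factors, had 52.6% GC and a median of 0.06. After subtraction of the GC bin it was 1.21, the highest of the lists. They ran from Hoxb6 at -0.73 to 1 transcript of Hoxa9 at 1.39, and 1 was higher (5%, against 6.48% of all transcripts) and 0 lower (against 34.3%). The other Hoxa9 transcript that passed was at -0.31. The 15 transcripts of lineage markers, of which 6 were lower (40%) and 0 higher, had a median of -0.64, which became 0.77 after subtraction. Mesp1 was lowest, at 7.87 and 5.64 FPKM against 1.05 and 1.45 FPKM, and Gata6 highest, at 5.98 and 5.55 FPKM against 7.34 and 7.02 FPKM with 56.5% GC. Of the 9 pluripotency transcripts (median -0.0029), 1 was higher and 2 lower (22.2%), and NM_013633 of Pou5f1 was lowest and Sox2 highest. Sox2, which pairs with Oct4 on DNA, was at 5.11 and 5.01 FPKM with mixes 1 and 2 and at 13.1 and 11.3 FPKM with mixes 3 and 4, a difference of 1.25.

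Of 16 immediate-early and heat shock transcripts, 3 were lower (18.8%, against 34.3% of all transcripts), with a median of -0.64. Junb was lowest at -2.69 (62.6% GC), and Hsp90aa1, a chaperone with 43.7% GC, was highest at 0.79. Collagens and laminins had 10 of 21 lower (47.6%, median -0.94), from Lamb2 at -2.95 to Col11a1 at 0.29. Of 7 protocadherin transcripts 3 were lower (42.9%, median -0.50), from Pcdh1 at -1.96 to NM_001122758 of Pcdh7 at 0.50. After subtraction of the GC bin these medians were 0.32, 0.17 and 0.10. By annotation, the 13262 transcripts with an NM identifier had a median of -0.40 and the 545 with an NR identifier one of -0.08. The 348 transcripts of 1 exon were at -0.28 and those of several exons at -0.39.

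**Figure D3:**
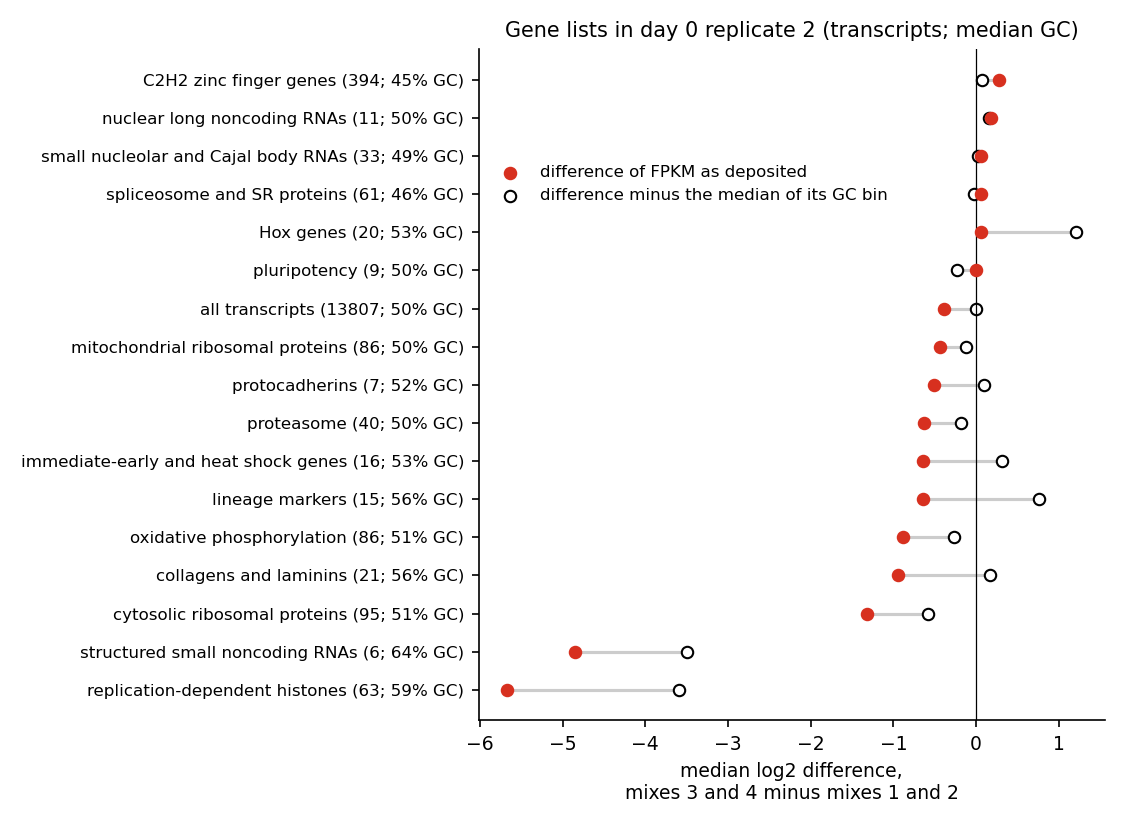
Median log2 difference between the vials of mixes 3 and 4 and those of mixes 1 and 2 (x axis) of each gene list and of all transcripts (y axis, with the number of transcripts and their median GC content). Filled points are the FPKM as deposited and open points the same after the median of each transcript's GC bin was subtracted, and the histones at -5.67 and the structured RNAs at -4.85 stay apart from the other lists in both.

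Many of the largest single differences lay in 1 transcript of a gene whose sum differed far less. Among transcripts with a mean of at least 10 FPKM over the 4 vials, NM_022314 of Tpm3, a tropomyosin of the actin cytoskeleton, was first on the higher side. It was listed at 0 with mixes 1 and 2, reached at most 0.258 FPKM in replicate 1 and was at 167 and 144 FPKM with mixes 3 and 4. In the day 4 libraries it was at 13.98 to 74.2 FPKM. Its isoform NM_001253738 was at 252 and 236 FPKM and then at 5.25 and 30.7 FPKM, and the gene summed to 260 and 244 FPKM against 175 and 179 FPKM. In Ldha, lactate dehydrogenase, the noncoding NR_102727 was at 0.193 and 0.167 FPKM and then at 190 and 131 FPKM, while the gene sum went from 744 and 647 FPKM to 324 and 336 FPKM. Among the day 4 libraries this Ldha transcript was listed at 0 in some and reached 46.4 FPKM at most. Adh5, a class III alcohol dehydrogenase, showed NM_001288578 listed at 0 and at 0.914 FPKM, then at 110 and 121 FPKM, with a gene sum of 187 and 180 against 151 and 158 FPKM. In Mtfr1, a regulator of mitochondrial fission, NM_001253390 was listed at 0 in the other 6 day 0 libraries and was at 23.6 and 33.8 FPKM, with gene sums of 28.2 and 31.0 against 40.2 and 39.6 FPKM.

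In Rnf128, Cbfb, Tcea1 and Abi1, as in Mtfr1, the gene sum was higher as well. Rnf128, a ubiquitin ligase, had NM_001254761 listed at 0 with mixes 1 and 2 and at 47.8 and 39.5 FPKM with mixes 3 and 4, and a gene sum of 31.9 and 35.8 against 73.8 and 67.8 FPKM. In the day 4 libraries this transcript was at 8.22 to 18.85 FPKM. The sums of Cbfb (a partner of Runx factors), Tcea1 (an elongation factor of RNA polymerase II) and Abi1 (an actin regulator) had differences of 0.96, 0.91 and 0.75, and their named transcripts differences of 7.35, 6.70 and 6.67. The other 2 named rows were the second position listed for Eno1b, a form of enolase, and 1 of 2 positions of the pseudogene Gm5643, and such copies can share reads with their parent genes. The rows of Eno1b summed to 533 and 388 FPKM against 144 and 155 FPKM. Gm5643 was at 0.861 and 1.71 FPKM against 641 and 467 FPKM. The named transcript of Rnf128 is the most GC-poor of the named transcripts, with 37.9%. Its first 300 coding bases, at chrX:139563478-139563777 on the plus strand, have 43% GC and no run of G and C over 4 bases.
Rnf128: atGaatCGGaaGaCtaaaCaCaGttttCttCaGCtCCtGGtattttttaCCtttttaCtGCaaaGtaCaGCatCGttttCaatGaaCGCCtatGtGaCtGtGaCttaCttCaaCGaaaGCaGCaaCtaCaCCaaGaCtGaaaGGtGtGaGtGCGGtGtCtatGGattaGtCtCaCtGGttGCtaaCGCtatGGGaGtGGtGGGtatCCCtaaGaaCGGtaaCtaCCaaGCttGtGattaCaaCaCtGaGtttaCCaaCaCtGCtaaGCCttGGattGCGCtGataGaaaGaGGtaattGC

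On the lower side, 6 of the named transcripts were listed at 0 in both vials of mixes 3 and 4. NM_001290530 of H2bc6 and NM_001290380 of H2bc4, which encode histone H2B, were at 306 and 98.3 FPKM and at 299 and 95.5 FPKM with mixes 1 and 2. With mixes 3 and 4 the first was listed at 0 and the second was at 0.275 and 0.89 FPKM, and the genes summed to 3.54 and 3.09 and to 2.81 and 6.27 FPKM. Both were matched to transcript models of 2480 and 1156 bases with 45.7% and 45.9% GC, below the median of the histones. Septin9 (a cytoskeletal GTPase), Ctbp1 (a transcriptional corepressor) and Gtse1 (a protein of the G2 and S phases) had their named transcripts at 34.9 and 20.5, 29.9 and 16.8, and 27.8 and 15.04 FPKM with mixes 1 and 2, and all were listed at 0 with mixes 3 and 4. Their gene sums differed by -1.96, -1.02 and -1.75. Rprl3, an RNase P RNA-like gene, was at 1148 and 278 FPKM against 2.88 and 3.01 FPKM and the pseudogene Gm10052 at 330 and 268 FPKM against 1.57 FPKM and a value listed at 0. Both can share reads with other genes of their families.

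**Figure D4:**
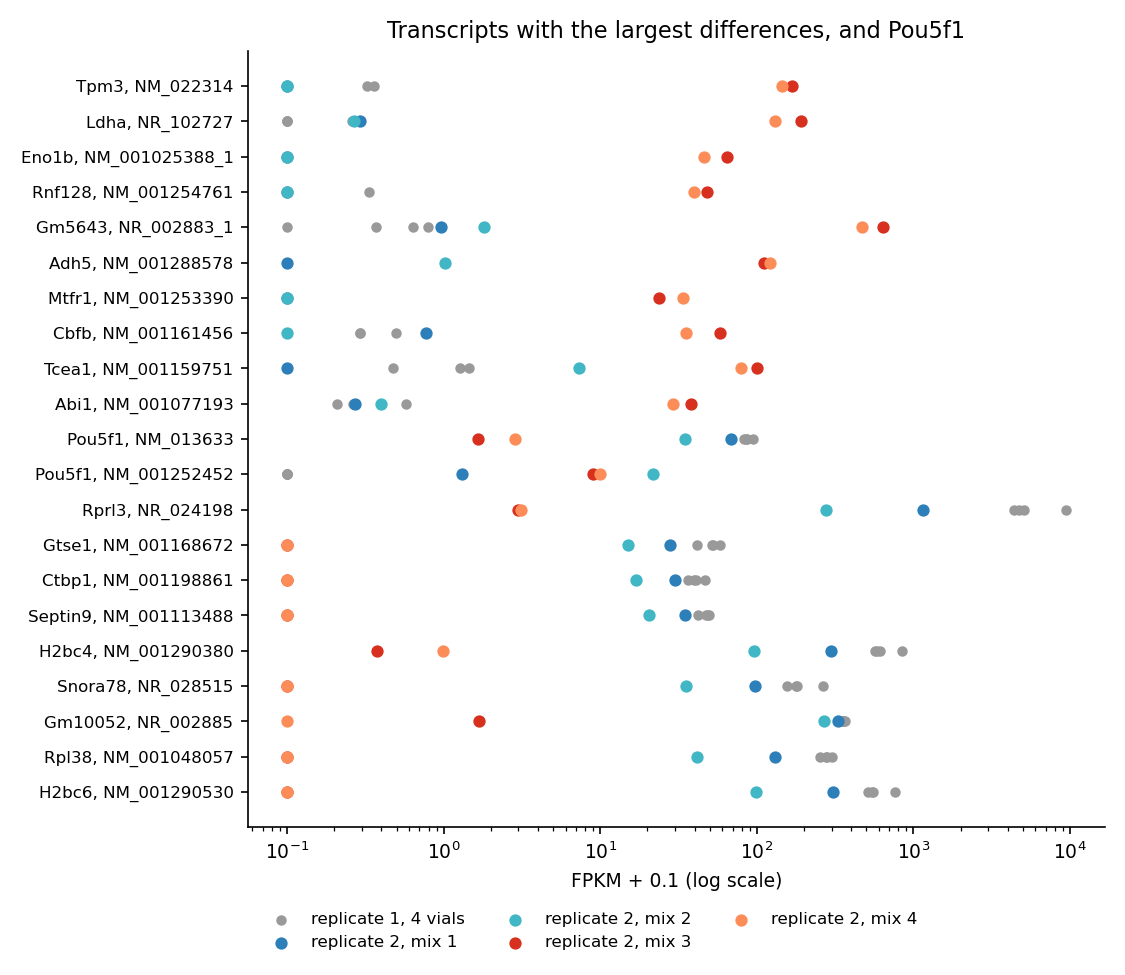
FPKM + 0.1 on a log scale (x axis) of the named transcripts with the largest differences and of both Pou5f1 transcripts (y axis), 1 point per day 0 library. Points at 0.1 are values listed at 0, and the points of mixes 3 and 4 lie apart from those of mixes 1 and 2 in each named transcript, with the mix 2 vial between the mix 1 vial and mixes 3 and 4 in each on the lower side.

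Over the whole table, 41 transcripts were listed at 0 in both vials of mixes 3 and 4 while at 5 FPKM or more in all other 6 day 0 libraries. Another 9 were listed at 0 in those 6 and at 5 FPKM or more in both vials, among them NM_001172095 of Kdm4c, a histone demethylase, at 12.6 and 11 FPKM. A gene with 1 transcript higher and another lower was found 214 times, among 829 genes with a higher and 4122 with a lower transcript. Of the 116 higher transcripts with at least 50% GC, 92 belonged to a gene with a lower transcript, and of the 630 higher transcripts under 45% GC, 69 did. Lower transcripts were themselves more frequent at high GC content, with 1537 of 3641 between 50 and 55% GC and 102 of 2558 between 40 and 45%. The same shares over all transcripts of these GC ranges were not counted, so the contrast cannot be called particular to the higher ones. On FPKM summed per gene, 436 genes were higher and 3622 lower of 11220.

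Leading isoforms were compared in 1754 genes with at least 2 RefSeq transcripts and 5 FPKM in each of the 4 vials. In 204 genes (11.6%) 1 transcript led in both vials of mixes 1 and 2 and another in both vials of mixes 3 and 4. The same count was 23 genes (0.988%) in replicate 1, 19 (0.899%) in day 4 replicate 1 and 18 (0.875%) in day 4 replicate 2. In 177 of the 204 genes the leader of mixes 1 and 2 also led in all 4 libraries of replicate 1, and in 111 the sum of the gene was within 1.5-fold. The new leader gained a median of 48.6 percentage points of the gene's FPKM. For 173 genes both transcripts had sequences of their own. The former leader had the higher GC content in 112 of these (64.7%), the GC-richer first 300 bases in 111 (64.2%) and the greater length in 132 (76.3%). The median gap was small, 0.34 percentage points of GC for the whole transcript and 2 for the first 300 bases. Those first bases were GC-poorer in 43 genes and equal in 19. Over 1099 genes whose leader was the same in all 4 vials, the leader had the higher GC content than the second transcript in 42.4%, the GC-richer first 300 bases in 44.8% and the greater length in 52.6%. The last 300 bases were GC-richer in the former leader in 30.1% of the 173 genes and in the leader in 32.7% of the 1099. Ties were counted as not richer. These shares are a description, since the leaders were chosen on the same vials.

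Tpm3 showed an exchange between isoforms of nearly the same length that differed in the GC content of their first 300 bases. NM_001253738 had 96.7% and 96.6% of the gene's FPKM with mixes 1 and 2 and 3.001% and 17.1% with mixes 3 and 4. NM_022314 had 0% with mixes 1 and 2 and 95.4% and 80.3% with mixes 3 and 4. Their lengths are 2230 and 2233 bases and their GC contents 50.5% and 48.6%. Their first 300 bases have 64% and 52% GC and their last 300 bases 47% each. Across all transcripts with GC content the direction was the other one. There the GC content of the first 300 bases had a Spearman correlation of 0.20 with the difference after subtraction of the GC bin's median.

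The 6 genes with the largest exchange were Ldlrad3, Rffl, Grk6, Inpp5a, Swi5 and Ctnnbip1. In Ldlrad3, a membrane receptor, NM_001290784 went from 4.18% and 0% with mixes 1 and 2 to 99.6% in both other vials, and the gene summed to 8.98 and 9.40 against 11.4 FPKM in both. In Rffl, a ubiquitin ligase, NM_001164571 went from 0% and 10.1% to 93.9% and 97.9%, and the first 300 bases of the former leader have 69.7% GC and those of the new one 44.7%, while the whole transcripts have 49.0% and 52.9%. Grk6, a kinase of G protein-coupled receptors, differed in its gene sum too, with 42.5 and 31.7 against 9.59 and 11.02 FPKM, while NM_001286063 went from 0% and 5.39% to 99.0% and 86.4%. Inpp5a, an inositol phosphatase, was held by NM_183144 at 100% in both vials of mixes 3 and 4, from 5.46% and 16.8%. Swi5, a DNA repair factor, had NM_001290552 at 1.87% and 3.55% and then at 93.8% and 88.6%, at gene sums of 177 and 182 against 168 and 186 FPKM. In Ctnnbip1, an inhibitor of β-catenin, the 634-base NM_001141930 took 90.4% and 85.4% from the 2674-base NM_023465, which had held 100% in each of the other 6 day 0 libraries. There, too, the first 300 bases went from 69% to 61% GC and the whole transcript from 54.97% to 58.5%. For Ldlrad3 the isoforms were matched to a single GENCODE transcript, so their GC contents cannot be compared.

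**Figure D5:**
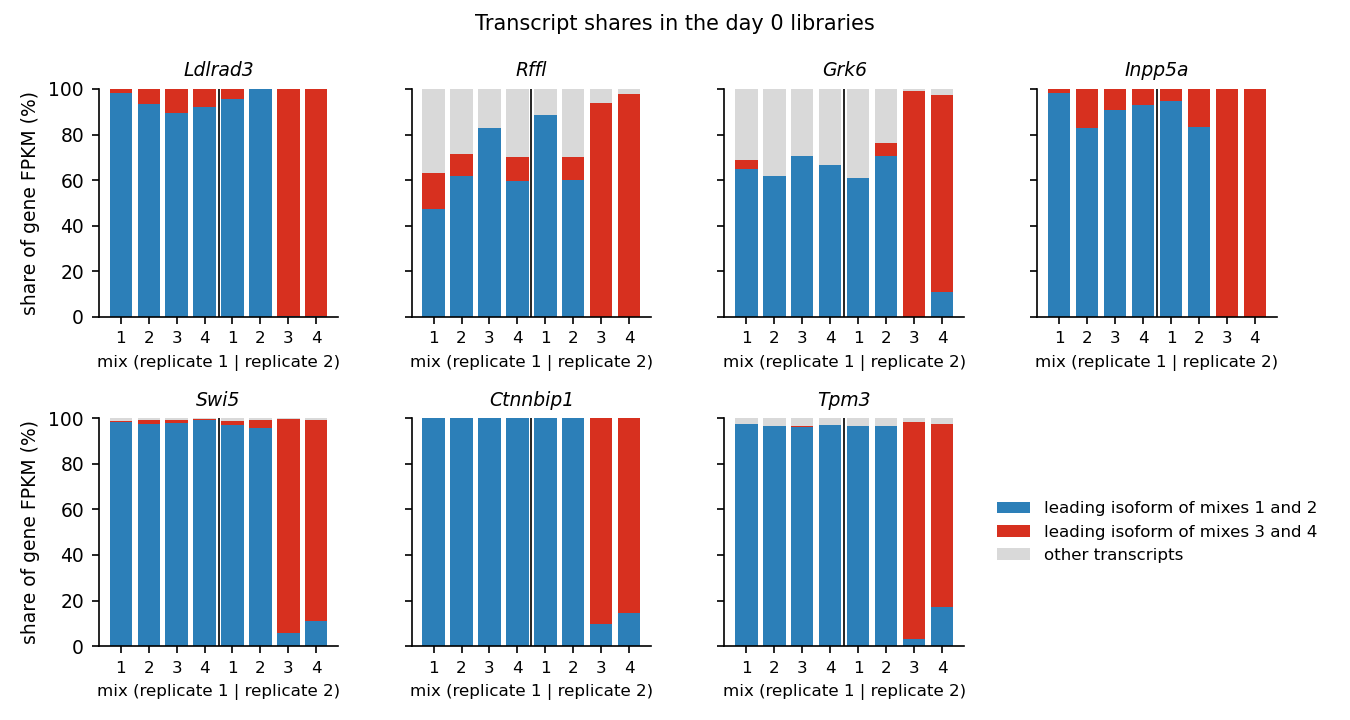
Share of a gene's summed FPKM in percent (y axis) held by the leading isoform of mixes 1 and 2 (blue), that of mixes 3 and 4 (red) and all other transcripts (grey) in the 8 day 0 libraries (x axis, mixes 1 to 4 of replicate 1 and of replicate 2). Blue leads in the first 6 bars of every panel and red in the last 2 bars, where it holds at least 80.3%.

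The same contrast of mixes was tested in the 3 RNA samples that the choice of the vials did not use. With limma on log2(FPKM + 0.1) and a Benjamini-Hochberg adjusted p of at most 0.05, 0 transcripts (0%) differed between mixes 3 and 4 and mixes 1 and 2 in day 0 replicate 1, of 24638 tested. It was 0 of 25023 in day 4 replicate 1 and 0 of 24572 in day 4 replicate 2, with 2 vials against 2 in each. Before adjustment, 1067, 759 and 985 transcripts reached a limma p of 0.05 or less. With the 3 RNA samples in 1 fit, 0 of 27777 differed, and 707 at an unadjusted p. The transcripts called lower in day 0 replicate 2 had a median difference of -0.06 in day 0 replicate 1, 0.15 in day 4 replicate 1 and 0.09 in day 4 replicate 2. Those called higher had -0.01, -0.06 and -0.04. In the fits of a single RNA these p-values measure the spread between vials of that RNA, and in the joint fit, which has day but not the RNA sample as a term, also the spread between the RNA samples of day 4.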

How the data were processed

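Stranded paired-end 100-base libraries were made by the study from 700 ng of total RNA after ribosomal RNA removal. Per the labels, 39 to 59 M reads were sequenced per sample. The authors ran RSEM with Bowtie2 on RefSeq transcripts of mm10 and the spike-in transcripts, and deposited 1 table of FPKM normalized by the trimmed mean of M values (TMM). The submitters' processing notes name RSEM 1.2.18, Bowtie2 2.1.0 and TopHat2 2.0.10. All 16 columns were assigned by sample title (0 without a sample).

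The members, the gene lists and the tests were chosen with earlier results of these data known. Rows were paired with a symbol (99.2%) through RefSeq annotation of GRCm38.p6 and with GC content and length (97.4%) through GENCODE vM21 transcripts of the same build. These may differ from the RefSeq sequence, and 2999 rows shared a GENCODE transcript with another accession. Values were analysed as log2(FPKM + 0.1), which understates changes near 0. A call needed means at least 2-fold apart without overlap, among transcripts with a mean of at least 1 FPKM. The number of fragments behind a value is unknown, and 1223 rows had an accession listed more than once, so that reads of near-identical copies are uncertain. The GC correction subtracts, per library, the median deviation in 20 bins of GC content. Named transcripts had a mean of at least 10 FPKM over the 4 vials, with the 10 largest and 10 smallest differences, 1 per gene, of which 1 is not reported here. The 6 genes with the largest exchange of isoforms, the extremes of each list, the transcripts at the limit and Pou5f1 were added. Spike-in rows and RefSeq transcripts of spike-in genes were left out of every step. Other transcripts were named after their values were seen.

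Tests used limma (lmFit, eBayes with a trend) and Benjamini-Hochberg adjustment. Vials of an RNA share it by the study's design, and the fit over 3 RNA samples was repeated with the RNA as a replicate block. The calls, the GC correction and the fits were tested on simulated data. Python 3.11.15, numpy 2.4.6, pandas 2.3.3, matplotlib 3.10.9, R 4.3.3 and limma 3.58.1 were used.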

Additional observations from a re-analysis of the deposited data

How the results depend on the processing

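Pseudocount, filter, centring, GC correction, gene sums and left-out vials were tried, and those for gene lists and named transcripts were chosen after the data were seen. In day 0 replicate 2, 537 transcripts were higher and 2864 lower with a mean of at least 5 FPKM, 2364 were higher after centring, 1418 lower after GC correction, and 436 genes higher on gene sums, while leaving out 1 vial gave 722 to 1167 higher and 4502 to 5038 lower. The GC-rich median of -2.04 became -1.38 with a pseudocount of 1 FPKM, -1.27 without a filter and -1.66 after centring. The GC-poor median of 0.66 became 0.46 without a filter and 1.05 after centring. Transcripts under 1000 bases went from -0.94 to -0.73, -0.24 and -0.55 under those 3 settings, and those over 4000 bases reversed from -0.08 to 0.10 with a mean of at least 5 FPKM and to 0.31 after centring. In replicate 1, the 46 higher and 73 lower became 19 and 22 with a pseudocount of 1 FPKM, 12 and 8 with a mean of at least 5 FPKM, 290 and 374 without a filter, 0 and 8 on gene sums, and 97 to 139 and 109 to 187 when 1 vial was left out, the highest without mix 2. Other leading isoforms numbered 118 with a mean of at least 5 FPKM and 237 to 289 with 1 vial left out. GC correction reversed the medians of lineage markers (0.74), immediate-early and heat shock genes (0.30), collagens and laminins (0.14), protocadherins (0.075) and spliceosome proteins (-0.022). The causes were not tested, beyond the smaller number of transcripts under a stricter filter.

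With the RNA sample as a replicate block, limma made 0 calls over the other 3 RNA samples, as without it (841 and 707 at an unadjusted p of 0.05). Leaving out 1 library gave 0 to 1 calls, the 1 being NM_153400 without the day 0 mix 2 vial of replicate 1 (log2 -0.88, limma adjusted p = 0.0019).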

Other observations

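The change from day 0 to day 4 within replicate 2 was counted for either pair of vials against the day 4 replicate 2 vials of the same mixes, over 13532 transcripts and by the same 2-fold rule without overlap. Against the mix 1 and mix 2 vials, 2784 transcripts were higher and 3889 lower at day 4. Against the mix 3 and mix 4 vials, 3031 were higher and 1432 lower. Of 2689 transcripts with at least 55% GC, 170 were higher and 1807 lower by the first pair and 841 higher and 220 lower by the second. Of 3446 under 45% GC, 1316 were higher and 190 lower by the first and 574 higher and 406 lower by the second. At each day the pairs of vials are portions of 1 RNA.

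Transcripts that differed between day 4 and day 0 replicate 1 were read among those of 45 to 50% GC. The 115 that were at least 8-fold higher in every day 4 library than in every library of day 0 replicate 1 had median log2 deviations from replicate 1 of 0.00, 0.01, 0.06 and 0.16 in the vials of mixes 1 to 4, against 4.73 at day 4. The 51 that were at least 8-fold lower at day 4 had -0.15, -0.31, -0.86 and -0.79, against -4.62 at day 4. These 51 were chosen on low day 4 values and include histone transcripts, such as NM_001290530 of H2bc6. That transcript was at 513 to 762 FPKM in replicate 1, at most 17.1 at day 4 and listed at 0 with mixes 3 and 4. The vials are portions of 1 RNA of day 0, so the differences among them are not differences of stage. How much of the day 4 difference of this set is stage was not tested.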
